A study of Mus musculus with 6 samples.

Results

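The genes described here are 37 genes of cholesterol and fatty acid synthesis, named as a list and looked up in a table of transcript levels from mouse CD4 T cells, among 22636 genes in all. The list holds 7 genes of the mevalonate pathway, 11 of the steps from farnesyl diphosphate to cholesterol, 5 regulators of the SREBP transcription factors, 3 genes of sterol transport, 4 of fatty acid synthesis and 7 of fatty acid desaturation and elongation. The deposited symbols gave 33 of the 37. The other 4, Cyp51, Sc5d, Scd1 and Srebf1, stood under older or human-style names and were found by their RefSeq accession.

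The cells were wild-type (WT) naive CD4 T cells of C57/BL6 mice, sorted from spleen and lymph node as CD4+ CD44lo CD62L+ CD25neg. Each culture was stimulated for 36 h on plates coated with anti-CD3 and anti-CD28 (10 ug/ml), with antibodies blocking IL-4 and IFN-gamma (the Th0 condition), and then transduced. In 3 libraries the retrovirus was MigR1 without an insert, called the empty vector here, and in 3 it was MigR1 carrying the cDNA of Blimp-1, a transcriptional repressor encoded by Prdm1. Transduced cells, marked by the GFP of the vector, were sorted after 2 more days, and the labels call the 3 samples of each vector independent biological replicates. The cells kept their own Prdm1 gene, so the Blimp-1 libraries are a model of forced expression from a retrovirus in cells selected for carrying it.

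Cholesterol is built from acetyl-CoA through mevalonate, farnesyl diphosphate, squalene and lanosterol, and fatty acids are built from malonyl-CoA. Both routes are switched on by the SREBP factors, which are held in the endoplasmic reticulum by SCAP and the INSIG proteins while sterols are plentiful and are released to the nucleus when sterols run low. Sterol-loaded cells use the LXR receptors to raise the exporters ABCA1 and ABCG1 instead. T cells that have been activated to divide raise the synthesis genes to supply new membrane.

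Levels are in FPKM, fragments per kilobase of transcript and per unit of library size, so they are shares of the RNA pool scaled to length, and they can be compared between genes. Estimated depth was 17100000 to 38300000 reads for the empty vector libraries and 33500000 to 45800000 reads for Blimp-1. Prdm1 was at 0.996, 2.03 and 1.38 FPKM in empty vector replicates 1 to 3 and at 9.91, 12.8 and 9.45 with Blimp-1, with no overlap between the vectors. Its log2 fold change was 2.26 (SE 0.19), with a limma adjusted p of 0.0565 and, with the replicate number as a block, 0.00497. The 7 CD4 T cell markers summed to 1790 to 2140 FPKM with the empty vector and to 1810 to 2010 with Blimp-1. Summed levels of the other marker lists were 1.88 to 5.40 against 1.84 to 6.50 FPKM for 7 B cell genes, 2.43 to 3.67 against 2.90 to 4.16 for 8 myeloid genes and 53.4 to 99.6 against 54.1 to 80.7 for 7 dendritic cell genes. The dendritic sum was nearly all H2-Ab1, at 49.6 FPKM or more, while H2-Aa, Flt3, Itgax, Xcr1, Siglech and Clec9a ran from 0 to 3.53 FPKM. The 2 CD8 T cell genes summed to 7.18 to 10.4 against 7.94 to 11.0 FPKM, with Cd8a at 0.169 or less. Replicates 1 to 3 of the empty vector had 14.7, 30.6 and 3.99 FPKM over 6 NK cell genes, with Ncr1 at 0 in all 6 libraries, and the Blimp-1 replicates had 16.7, 43.4 and 14.7. Of 4 erythroid genes 3 were found, and their sum was highest in empty vector replicate 3, at 18.9 FPKM against 0.503 to 3.13 in the other 5 libraries. In bulk RNA, fewer cells of a type and less RNA per cell cannot be told apart.

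Of the 37 genes, 36 reached 1 FPKM in at least 3 of 6 libraries and were tested within a limma fit of all 10865 genes that did so. Hmgcs1, which makes HMG-CoA for the mevalonate pathway, was the exception. It was listed at 0 in all 6 libraries in each of its transcripts. In a file without counts such a 0 can be a failed estimate, so Hmgcs1 gives no information here.

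No member passed the test. Limma called 0 of 36 as higher and 0 as lower with Blimp-1 at an adjusted p below 0.05, where 0.0% of all 10865 genes were called, and at an unadjusted p below 0.05 there were 0 of the 36 and 123 of all genes. The adjusted p was 0.998 for each of the 36. With the replicate number as a block, limma again called 0 of the 36, against 0.0184% of all genes (0.0092% higher and 0.0092% lower), and the smallest adjusted p of a member was 0.142 (Abca1). At an unadjusted limma p below 0.05 that blocked fit had 8 members lower and 1 higher, 22.2% and 2.78% of the 36, where the shares over all genes were 10.7% and 9.77%. The values of the vectors overlapped for all 36 members. Over all genes, they did not overlap for 2.29% with Blimp-1 higher and 2.34% with Blimp-1 lower.

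The differences between the vectors leaned to lower values with Blimp-1, and they were not alike in the 3 replicates. In the fit 29 of 36 members had a negative log2 fold change and 7 a positive one, where 5657 and 5208 of all 10865 genes did. The median of the members was -0.21 against -0.01 over all genes tested. In pair 1 (the libraries numbered 1 of each vector) the median difference of the 36 was -0.14, in pair 2 it was 0.02, and in pair 3 it was -0.47. The median of the fit moved with single libraries. Without empty vector replicate 3 it was 0.05, with 25 of 36 members positive. Without Blimp-1 replicate 2 it was 0.01, and without empty vector replicate 2 it was -0.40. Each of these fits leaves the same-numbered library of the other vector unmatched. In the blocked fit without whole pairs 1, 2 and 3 the median was -0.22, -0.28 and -0.07, with 30, 29 and 24 of 36 members negative. Members were lower with Blimp-1 in 26, 16 and 30 of 36 cases in pairs 1, 2 and 3, against 49.2%, 50.2% and 51.1% of all genes. In all 3 pairs 11 members were lower, 30.6% of them against 22.8% of all genes, and 2 were higher, 5.56% against 22.8%.

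For nearly all members, as for most genes, the spread over the replicates exceeded the difference between the vectors. The range over the 3 pair means was larger than that difference for 35 of 36 members, all but Elovl6, as it was for 92.7% of all genes. A range over 3 means tends to exceed a difference of 2 means even without replicate effects, so this count alone does not set the members apart. Replicate 2 had the lowest level of its vector, with both vectors, for 26 of 36 members, or 72.2% against 23.6% of all genes. Empty vector replicate 3 had the highest level of all 6 libraries for 27 of 36, or 75.0% against 29.1%. Of the 17 tested enzymes of cholesterol synthesis, 17 were highest in that library and 14 had the order replicate 2, 1, 3 with both vectors, which 12.3% of all genes had. Their median difference between replicates 3 and 2 was 1.24 on the log2 scale for the empty vector and 0.69 for Blimp-1, while the median difference between the vectors was -0.28. The order replicate 2, 1, 3 was also found for 13 of 16 proliferation genes, a list that holds genes of DNA replication and mitosis such as Mki67 and Mcm5. Estimated depth was 17900000, 38300000 and 17100000 reads in empty vector replicates 1 to 3. With Blimp-1 it was 42400000, 45800000 and 33500000 reads. The part of depth, proliferation genes and erythroid genes in these values was not tested.

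The mevalonate pathway makes farnesyl diphosphate, the precursor of sterols and of the lipid anchors of small GTPases. Its 6 tested genes had log2 fold changes of -0.42 to -0.21, with a median of -0.31, and none passed the test. Fdps, which encodes farnesyl diphosphate synthase, had the highest level of the pathway, at 174, 81.7 and 323 FPKM in empty vector replicates 1 to 3 and at 134, 73.1 and 194 with Blimp-1. It was lower with Blimp-1 in 3 of 3 pairs, while the vectors overlapped, with the replicate 2 libraries lowest and replicate 3 highest in each vector. Mean levels were 193 ± 122 FPKM for the empty vector and 134 ± 60.5 for Blimp-1 (SD, n = 3 each). The log2 fold change of the fit, a difference of mean log2(FPKM + 1), was -0.42 (SE 0.53).

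Mvk encodes mevalonate kinase. It was at 18.8, 11.5 and 24.3 FPKM in the empty vector libraries and at 13.4, 9.71 and 16.3 with Blimp-1, lower in 3 of 3 pairs by 0.45, 0.22 and 0.55 on the log2 scale. With the block its log2 fold change of -0.41 had an SE of 0.08 and a limma adjusted p of 0.145. Pmvk, the next kinase of the pathway, was at 39.7, 26.3 and 62.6 FPKM against 35.9, 24.6 and 47.2, and Mvd, the decarboxylase after it, at 38.2, 19.3 and 57.2 against 32.0, 19.1 and 34.2. Both were lower in 3 of 3 pairs, Mvd in pair 2 by only 0.02, with log2 fold changes of -0.21 and -0.33. Acat2 (an acetoacetyl-CoA thiolase) and Idi1 (isopentenyl diphosphate isomerase) were higher with Blimp-1 in pair 2 and lower in the other pairs, with log2 fold changes of -0.30 and -0.28. The table lists a second transcript under the symbol of Acat2 that RefSeq names Acat3, a near copy, so reads may have been split between them. With that transcript added, the log2 fold change was -0.22.

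Promoters of the members were examined because the sterol enzymes shared an order over the libraries. A link between promoter motifs and that order was not tested. RefSeq windows (GRCm38.p6, 250 bases before to 50 after the start) were at hand for 29 of the 37 members, and were searched on both strands for CCAAT, the box bound by NF-Y, for TCACNCCAC, a core of the sterol regulatory element, for CACGTG, the E-box that SREBP1 can also bind, and for GNGAAAG, which holds the core of the Blimp-1 site. The 200 bases before the start are given 5′ to 3′ on the gene's strand, with matches to the first 3 motifs in capitals (ATTGG is CCAAT on the other strand; no 2 of the capital matches overlap). Mvk, Mvd and Tm7sf2 are genes with lower values in 3 of 3 pairs, Hmgcs1 holds the only TCACNCCAC of the 29 windows, and Abca1 is the exporter that was higher in 3 of 3 pairs.
Mvk: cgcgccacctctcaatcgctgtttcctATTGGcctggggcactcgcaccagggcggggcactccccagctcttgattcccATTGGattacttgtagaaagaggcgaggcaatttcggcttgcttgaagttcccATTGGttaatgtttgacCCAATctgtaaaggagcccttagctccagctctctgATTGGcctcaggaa
Mvd: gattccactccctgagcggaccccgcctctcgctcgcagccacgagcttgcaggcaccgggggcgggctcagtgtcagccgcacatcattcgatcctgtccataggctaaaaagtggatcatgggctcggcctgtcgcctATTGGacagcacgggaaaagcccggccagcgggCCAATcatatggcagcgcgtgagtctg
Tm7sf2: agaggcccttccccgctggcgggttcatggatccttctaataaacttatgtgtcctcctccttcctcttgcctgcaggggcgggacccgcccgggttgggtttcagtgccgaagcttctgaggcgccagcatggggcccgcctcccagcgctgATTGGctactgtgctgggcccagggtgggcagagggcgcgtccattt
Hmgcs1: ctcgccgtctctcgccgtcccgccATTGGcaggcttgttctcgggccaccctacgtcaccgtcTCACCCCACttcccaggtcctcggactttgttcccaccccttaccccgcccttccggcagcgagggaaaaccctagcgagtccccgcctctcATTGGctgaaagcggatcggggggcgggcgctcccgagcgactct
Abca1: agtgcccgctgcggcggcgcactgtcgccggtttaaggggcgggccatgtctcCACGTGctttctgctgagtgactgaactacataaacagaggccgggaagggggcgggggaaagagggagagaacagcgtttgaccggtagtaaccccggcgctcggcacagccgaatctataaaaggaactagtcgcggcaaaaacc
They lie at chr5:114444069-114444268 (+ strand), chr8:122443423-122443622 (- strand), chr19:6067851-6068050 (- strand), chr13:119690151-119690350 (+ strand) and chr4:53159896-53160095 (- strand). CCAAT was present in 14 of the 15 sterol enzyme promoters at hand (93.3%) and in 23 of the 29 of all members (79.3%). The shares were 43.6% of 8744 tested genes with a window and 41.1% of all 27025 genes with a RefSeq window. TCACNCCAC was in 1 of 29 (3.45%) against 1.35% of the tested genes, CACGTG in 7 of 29 (24.1%) against 12.1%, and GNGAAAG in 8 of 29 (27.6%) against 25.9%. GNGAAAG was present in 1 of the 15 sterol enzyme promoters, that of Dhcr7. Of the stretches printed above, that of Abca1 holds GNGAAAG, with its first base at -91 from the start and in lower case. A match is a run of letters and not a measured site.

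The steps from farnesyl diphosphate to cholesterol build and modify the sterol rings. All 11 genes were tested, their log2 fold changes ran from -0.49 to -0.05 with a median of -0.22, and none passed the test. Of the 11, 5 were lower with Blimp-1 in 3 of 3 pairs. In pair 2 the median difference was 0.01, and in pairs 1 and 3 it was -0.15 and -0.53.

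Lss, the lanosterol synthase that closes the rings, had the most negative log2 fold change of the members at -0.49 (SE 0.42). It was at 26.2, 11.0 and 39.2 FPKM in the empty vector libraries and at 17.6, 12.1 and 18.7 with Blimp-1. Pairs 1 and 3 were lower with Blimp-1 and pair 2 was slightly higher, so the direction was not shared. Tm7sf2, a sterol reductase, was at 7.95, 5.09 and 11.3 FPKM against 5.95, 4.41 and 8.08, lower in 3 of 3 pairs (log2 fold change -0.33, SE 0.08 and limma adjusted p = 0.152 with the block). Its gene overlaps Vps51 in RefSeq, and without a known strand setting reads from the overlap cannot be told apart.

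Cyp51, the lanosterol demethylase, was at 29.1, 18.2 and 45.4 FPKM against 24.0, 18.0 and 29.7. Ebp, a sterol isomerase, was at 22.0, 25.9 and 36.0 against 20.0, 21.6 and 27.2, and it was the one tested sterol enzyme without its lowest level in replicate 2 under both vectors. Both genes were lower in 3 of 3 pairs, Cyp51 in pair 2 by only 0.01, with log2 fold changes of -0.29 and -0.26, and their groups overlapped. Nsdhl and Sc5d, which act on the sterol ring, were lower in 3 of 3 pairs by as little as 0.02 and 0.01 in 1 pair, with log2 fold changes of -0.19 and -0.09.

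Among the other genes of these steps, Fdft1 had the highest mean. This gene of squalene synthase was at 39.9, 21.1 and 47.6 FPKM in the empty vector libraries and at 35.8, 21.3 and 38.4 with Blimp-1, with a log2 fold change of -0.15 (SE 0.33). It overlaps Ctsb in RefSeq. Sqle (squalene epoxidase), Msmo1 (a methylsterol oxidase) and Dhcr7 (the last reductase) were at 19.5 to 47.6, 19.1 to 54.7 and 9.84 to 26.4 FPKM, with log2 fold changes of -0.17, -0.22 and -0.29, and each was higher with Blimp-1 in pair 2. Hsd17b7 had the lowest level, 1.68 to 4.18 FPKM. It was higher with Blimp-1 by 0.16 and 0.28 in pairs 1 and 2 and lower by 0.59 in pair 3 (log2 fold change -0.05).

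**Figure D1:**
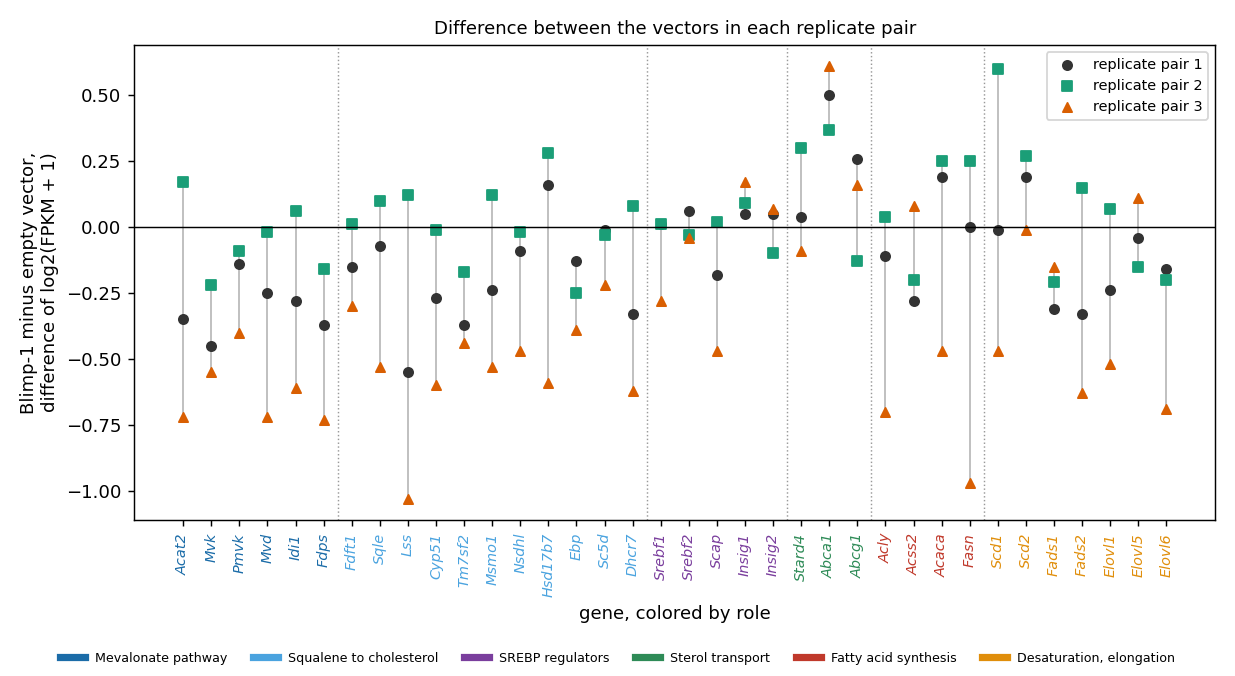
Differences between the vectors in each replicate pair for the 36 tested members (x axis, colored by role), as Blimp-1 minus empty vector on the log2(FPKM + 1) scale. Each symbol is 1 pair and the grey line joins the 3 pairs; in pair 3 the 17 sterol enzymes lie below 0, while in pair 2 they scatter around 0.

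The 5 regulators are the SREBP genes and the genes that hold or escort their proteins. Their log2 fold changes ran from -0.21 to 0.10, with a median of -0.01. Srebf2, which encodes the SREBP that mainly drives cholesterol genes, was at 103, 80.3 and 92.2 FPKM in empty vector replicates 1 to 3 and at 107, 78.6 and 89.4 with Blimp-1, with means of 91.8 ± 11.4 and 91.7 ± 14.4 (SD, n = 3 each). Srebf1, whose products act more on fatty acid genes, was at 39.7, 31.7 and 47.2 FPKM against 40.0, 31.9 and 38.8. Pairs 1 and 2 of Srebf1 were almost equal, and pair 3 was lower with Blimp-1 by 0.28. Its gene overlaps Rai1 in RefSeq. The log2 fold changes of Srebf2 and Srebf1 were -0.01 (SE 0.16) and -0.09 (SE 0.18), and that of Srebf2 was 0.05 with quantile normalization. These are transcript levels, and the SREBP proteins are controlled by cleavage, which was not measured.

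Scap, the escort protein that carries SREBP out of the endoplasmic reticulum, was at 12.9, 14.1 and 16.2 FPKM in the empty vector libraries and at 11.3, 14.3 and 11.4 with Blimp-1 (log2 fold change -0.21, SE 0.15). Insig1 retains SREBP in the endoplasmic reticulum and is itself an SREBP target. It was at 51.2, 27.3 and 44.3 FPKM in the empty vector libraries and at 52.9, 29.2 and 49.8 with Blimp-1, higher in 3 of 3 pairs by 0.05 to 0.17, with a log2 fold change of 0.10 (SE 0.30). Like the enzymes Insig1 was low in both replicate 2 libraries, but its highest values were in replicate 1. Insig2, its relative, ranged only from 10.8 to 13.2 FPKM over the 6 libraries, with a log2 fold change of 0.01 (SE 0.13). None of the 5 passed.

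**Figure D2:**
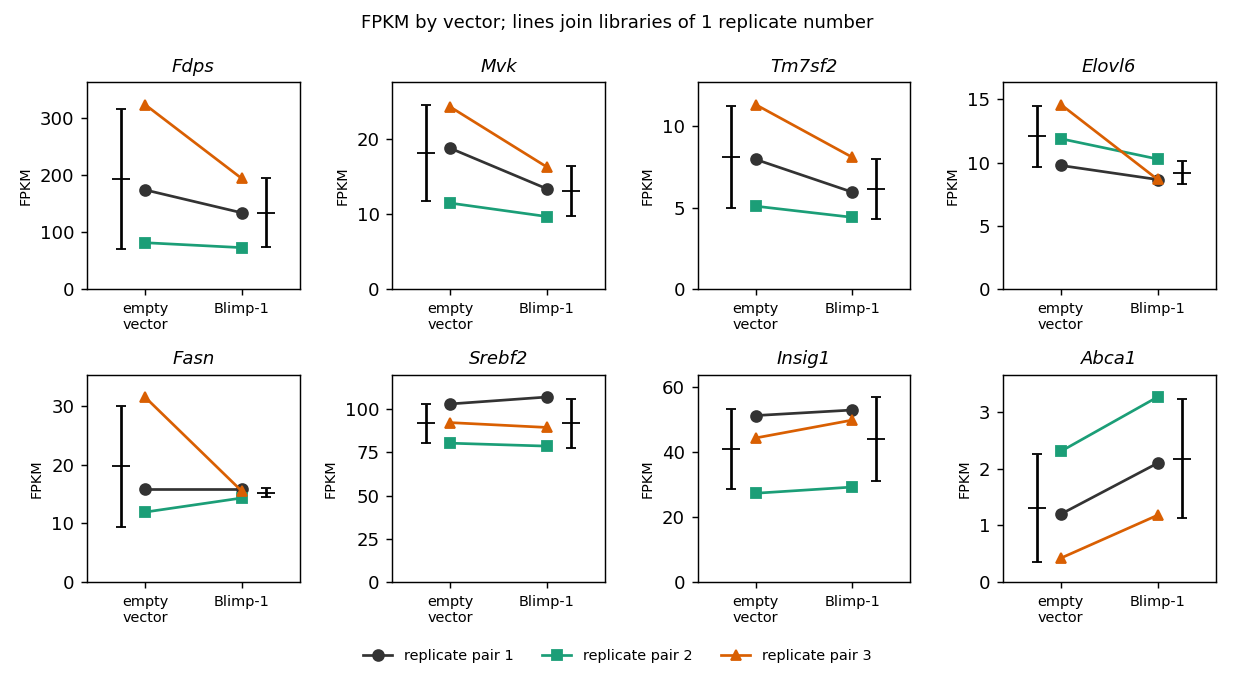
FPKM of 8 members in the empty vector and Blimp-1 libraries, with lines joining libraries of the same replicate number and the mean ± SD (n = 3) of each vector beside them. Fdps, Mvk and Tm7sf2 slope down in 3 of 3 pairs and Abca1 slopes up, and in each of these 4 genes the lines of the 3 replicates do not cross.

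Of the sterol transport genes, Abca1 went against the synthesis genes. Abca1, which exports cholesterol and is a target of the LXR receptors, was at 1.20, 2.31 and 0.422 FPKM in empty vector replicates 1 to 3 and at 2.10, 3.27 and 1.18 with Blimp-1. It was higher with Blimp-1 in 3 of 3 pairs by 0.50, 0.37 and 0.61 on the log2 scale, while the vectors overlapped. Both replicate 2 libraries were high and both replicate 3 libraries were the lowest of their vector. Mean levels of 1.31 ± 0.950 FPKM for the empty vector and 2.18 ± 1.05 for Blimp-1 (SD, n = 3 each) stood in a ratio of 1.66. The log2 fold change was 0.49, with SE 0.35 without the block and 0.09 with it. It was 0.84 and 0.92 with pseudocounts of 0.1 and 0.01 in place of 1. Without empty vector replicate 3 it was 0.18 and without Blimp-1 replicate 2 it was 0.25. Without empty vector replicate 2 it was 0.79, and without Blimp-1 replicate 3 it was 0.74. Each of these fits leaves a same-numbered library unmatched. In the blocked fit without whole pairs 1, 2 and 3 it was 0.49, 0.55 and 0.43. With all 6 libraries the limma adjusted p was 0.998 and, with the block, 0.142. The transcript of 10262 bases had about 74 reads in the lowest library. Like Abca1, the summed level of the 6 NK cell genes was highest in the replicate 2 libraries and lowest in empty vector replicate 3, with higher values for Blimp-1 in 3 of 3 pairs. The NK sum was mostly Klrd1, at 12.7, 26.2 and 3.16 FPKM in empty vector replicates 1 to 3 and at 15.1, 30.4 and 12.8 with Blimp-1, while Ncr1 was at 0 and Klrb1c at 0.0222 or less. The 7 B cell genes were highest in the replicate 2 libraries too. The cells had been sorted as CD4+ before culture and as GFP+ after it, and the part of these marker genes in the Abca1 values was not tested. Abcg1, a second exporter, had a log2 fold change of 0.10 (SE 0.15), with 11.1, 13.8 and 10.1 FPKM against 13.4, 12.5 and 11.4. Stard4, a carrier of sterols within the cell and an SREBP target, was at 38.0, 20.1 and 30.7 FPKM against 39.2, 24.9 and 28.8, with a log2 fold change of 0.08 (SE 0.26). Neither of these had the same direction in all pairs.

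The 4 fatty acid synthesis genes had median differences of -0.05, 0.14 and -0.58 in pairs 1, 2 and 3. Acly makes cytosolic acetyl-CoA from citrate, Acss2 makes it from acetate, Acaca carboxylates it to malonyl-CoA, and Fasn builds palmitate. Fasn was at 15.8, 11.9 and 31.5 FPKM in empty vector replicates 1 to 3 and at 15.8, 14.3 and 15.5 with Blimp-1. Acly, the highest of the 4, was at 39.2, 36.7 and 59.3 against 36.4, 37.8 and 36.2. With Blimp-1 both genes were nearly level over the replicates, and with the empty vector replicate 3 stood above the others. Acaca was at 4.75, 4.13 and 7.20 FPKM against 5.56, 5.11 and 4.91, higher with Blimp-1 in pairs 1 and 2 and lower in pair 3. Its gene overlaps Tada2a in RefSeq. Acss2 had 18.2, 21.8 and 19.5 FPKM against 14.8, 18.8 and 20.7, the reverse direction in each pair. The log2 fold changes of Fasn, Acly, Acaca and Acss2 were -0.24, -0.25, -0.01 and -0.13, and none passed.

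Desaturases and elongases finish fatty acids by adding double bonds and carbons. Scd2, a stearoyl-CoA desaturase, had the highest mean of all 37 genes, with 246, 153 and 244 FPKM in the empty vector libraries and 281, 184 and 243 in those with Blimp-1 (log2 fold change 0.15, SE 0.23). Its paralogue Scd1 was at 16.6, 6.66 and 34.5 against 16.4, 10.6 and 24.6, with a log2 fold change of 0.04 (SE 0.54), and reads of these similar genes may have been split. Both were low in replicate 2, but Scd1 was highest in empty vector replicate 3 and Scd2 in Blimp-1 replicate 1. Fads1, the delta-5 desaturase of polyunsaturated fatty acids, was lower in 3 of 3 pairs, at 17.7, 12.2 and 28.1 FPKM against 14.1, 10.4 and 25.3 (log2 fold change -0.22, SE 0.07 and limma adjusted p = 0.180 with the block). Fads2, which encodes the delta-6 desaturase, had the widest range over pair means of the members (1.79 on the log2 scale), with levels from 6.67 to 33.8 FPKM and a log2 fold change of -0.27.

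Elovl6 extends palmitate to stearate. It was at 9.79, 11.9 and 14.6 FPKM in the empty vector libraries and at 8.68, 10.3 and 8.69 with Blimp-1, lower in 3 of 3 pairs by 0.16, 0.20 and 0.69. Its log2 fold change was -0.35 (SE 0.17), and its unadjusted limma p of 0.0723 without the block was the smallest of the 36. Its highest Blimp-1 value, in replicate 2, was above the value of empty vector replicate 1. Elovl5 was at 64.1 to 80.0 FPKM over the libraries and Elovl1 at 20.4 to 36.0, with log2 fold changes of -0.03 (0.02 with quantile normalization) and -0.23. Elovl1 overlaps Cdc20 in RefSeq.

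Leaving out both libraries of pair 3, a step chosen after the data had been seen, changed the calls of the blocked fit. Without the block, limma called 0 members and 0 of all genes in the same 4 libraries, with 0 members and 136 genes at an unadjusted p below 0.05. The blocked limma fit of the other 4 libraries has 1 residual degree of freedom. It called 5 members as lower, 13.9% against 6.23% of all genes, and 2 as higher, 5.56% against 5.01%. Those called lower were Mvk (log2 fold change -0.34, adjusted p = 0.0101), Fdps (-0.27, adjusted p = 0.0200), Tm7sf2 (-0.27, adjusted p = 0.0494), Acss2 (-0.24, adjusted p = 0.0438) and Fads1 (-0.26, adjusted p = 0.0323). Those called higher were Abca1 (0.43, adjusted p = 0.0101) and Scd2 (0.23, adjusted p = 0.0231). The median of the 36 members was -0.07 in this fit, against -0.21 with all libraries, and Fasn, Acaca, Hsd17b7 and Sqle had positive values there (0.12, 0.22, 0.22 and 0.02). Without pair 1 or pair 2 the blocked fit called 0 members.

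Other genes of lipid metabolism and growth were set beside the members. Of 28 further genes of sterol and lipid synthesis, 23 were tested, 0 passed in either direction with or without the block, and the median log2 fold change was -0.05. With the smallest blocked p-values, Hsd17b12 and Nr1h2 (the gene of LXR-beta) had log2 fold changes of -0.31 and -0.20. Hacd2, Mbtps2 (a protease that cleaves SREBP) and Dgat1 had 0.20, 0.18 and 0.16. All 16 genes of fatty acid oxidation were tested and 0 passed, with a median of 0.05. Acadl and Eci1 had the smallest blocked p-values among the positive ones (0.21 and 0.19), and Etfb among the negative ones (-0.32). The 11 growth and activation genes, with Myc and the transferrin receptor gene Tfrc among them, had medians of -0.05, 0.06 and -0.45 in pairs 1, 2 and 3. The 16 proliferation genes had -0.20, -0.21 and -0.05, and 16 of 16 had a negative log2 fold change, against 5657 of all 10865 genes. Limma called 0 of either list with all 6 libraries, with or without the block. The blocked fit without pair 3 called 5 of the 16 proliferation genes as lower (Birc5, Rrm2, Tyms, Cdk1 and Pcna), or 31.2% against 6.23% of all genes. It also called Etfb of the fatty acid oxidation list as lower (limma adjusted p = 0.0343).

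**Figure D3:**
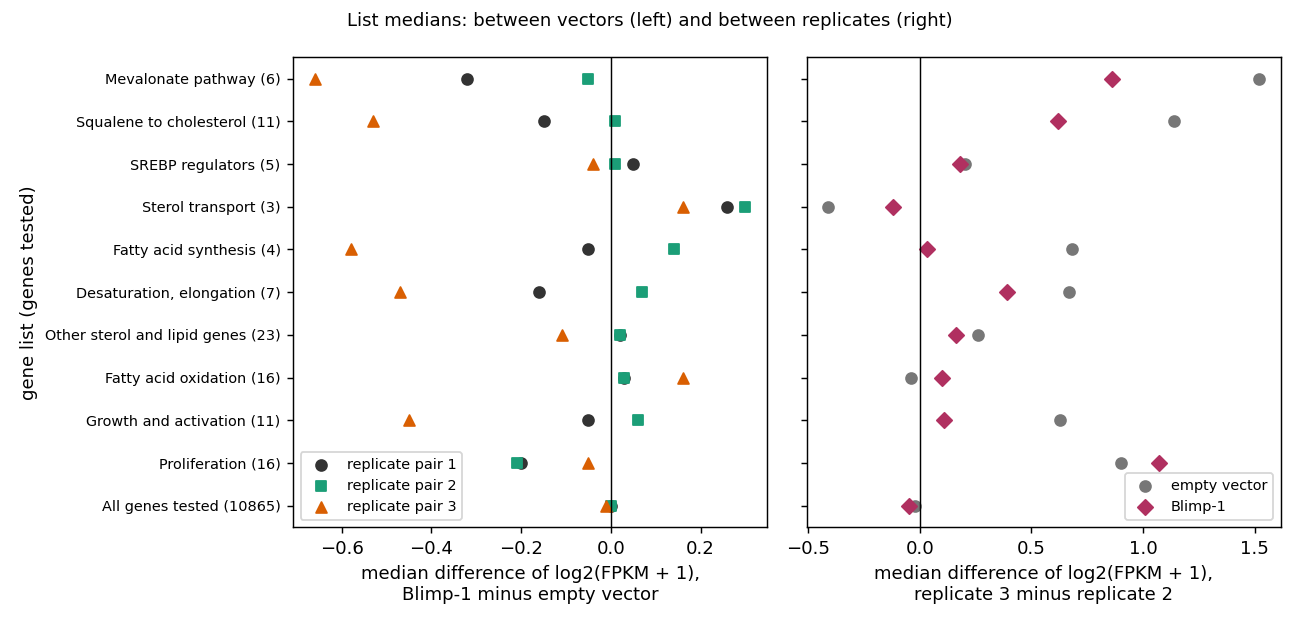
Median differences of log2(FPKM + 1) for each role and for the other lists (number of genes tested in brackets), between the vectors in each replicate pair (left) and between replicates 3 and 2 within each vector (right). The mevalonate and sterol lists lie farthest to the right in the right panel with the empty vector, at 1.52 and 1.14, followed by proliferation at 0.90. With Blimp-1 the proliferation list lies farthest to the right, at 1.07, with mevalonate at 0.86 and sterol at 0.62. All genes tested lie near 0.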

How the data were processed

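RNA of 6 samples was read on a HiSeq 2000 for 50 cycles, single end, per the labels. The authors deposited FPKM values for 29868 transcripts; Cufflinks 2.2, Partek 6.6, CASAVA 1.8.2 and mm9 stand in the submitters' processing notes, without roles. For the aligner, annotation release, filters and strand setting, the sources used here give nothing. Accessions were matched to RefSeq names (29488 transcripts; 239 by symbol, 130 kept their symbol, 11 had none), and FPKM was summed per gene. Genes reaching 1 FPKM in 3 or more of 6 libraries were tested in R 4.3.3 with limma 3.58.1 (trend option), using log2(FPKM + 1) values, no term but the vector, and two-sided Benjamini-Hochberg adjustment at 0.05 over all 10865 genes. Fold changes are on that scale, which understates changes of low genes.

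Same-numbered libraries deviated together from their vector's mean (correlations 0.80, 0.81 and 0.70 for numbers 1, 2 and 3), so the numbers were taken to pair the libraries, from the data and not from a label, and a blocked fit was added. For depth, the most common low value of FPKM times transcript length, over single-transcript genes (298 to 354 per library), was taken as 1 read, so depths are estimates. Without the block, the p-values set the vector difference against the spread between libraries of the same vector. With the block, they set it against the spread of that difference between the pairs. Members, lists and tests were chosen with earlier results of these data known. Per-library values are given for members with no overlap, with 1 direction in 3 of 3 pairs and a log2 fold change of at least 0.3 in size, or with p below 0.05 in either fit, for regulators and transport genes, and for the highest member of each role; those of the remaining genes were chosen after their values were seen. Other lists are named by their smallest blocked p-values, up to 3 per direction; 1 gene that this rule names is not reported here. The main fit and the blocked fit, each with all 6 libraries, were tested on simulated data, and the other fits were not. Alternatives, 15 planned and 7 added after the data were seen, were other pseudocounts, filters, scalings, transcript choice, no trend, the block, and left-out libraries.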

Additional observations from a re-analysis of the deposited data

How the results depend on the processing

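The 0 calls among the members held in each of the 15 alternative settings listed at the outset, the replicate block included, and in 6 of the 7 added later. The exception was the blocked fit without both replicate 3 libraries, with 7 members called. Over all genes limma called 0, and 1 with median scaling, 2 with the replicate block (also with median scaling or quantile normalization added), 3 and 27 with the block without replicates 1 and 2, and 1221 without replicate 3; leaving out 1 library gave 0 to 1. The members' median was -0.22 to -0.18 in the alternatives with all 6 libraries. When 1 library was left out it ran from -0.40 (without empty vector replicate 2) to 0.05 (without empty vector replicate 3). Without Blimp-1 replicate 2 it was 0.01. In the blocked fit with whole pairs left out it was -0.28 to -0.07. With all libraries, 2 members turned in sign, Srebf2 (0.05) and Elovl5 (0.02) with quantile normalization, with or without the block. Without both replicate 3 libraries, with or without the block, Sqle (0.02), Hsd17b7 (0.22), Srebf1 (0.01), Srebf2 (0.01), Insig2 (-0.02), Acaca (0.22) and Fasn (0.12) turned. With the block, Insig2 (-0.02) turned without replicate 1, and Srebf2 (0.01), Stard4 (-0.02), Scd1 (-0.24) and Elovl5 (0.04) turned without replicate 2. The cause was not tested.

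Leaving out 1 library leaves the same-numbered library of the other vector unmatched. With 1 library left out, 25 members turned in sign in at least 1 of 6 fits, none of them called. Their log2 fold changes ran over these ranges: Srebf2 -0.12 to 0.10, Insig1 -0.16 to 0.37, Stard4 -0.16 to 0.28, Scd1 -0.53 to 0.57, Scd2 -0.07 to 0.32, Acat2 -0.75 to 0.13, Pmvk -0.51 to 0.10, Mvd -0.74 to 0.02, Idi1 -0.66 to 0.10, Fdps -0.93 to 0.06, Fdft1 -0.49 to 0.11, Sqle -0.52 to 0.10, Cyp51 -0.61 to 0.02, Msmo1 -0.61 to 0.12, Nsdhl -0.41 to 0.05, Hsd17b7 -0.31 to 0.17, Sc5d -0.21 to 0.05, Dhcr7 -0.62 to 0.05, Srebf1 -0.23 to 0.05, Insig2 -0.06 to 0.05, Acaca -0.15 to 0.19, Fasn -0.53 to 0.14, Fads1 -0.56 to 0.07, Fads2 -0.82 to 0.27 and Elovl5 -0.11 to 0.05. The other 11 members did not turn in sign, but their sizes moved: Mvk -0.69 to -0.18, Tm7sf2 -0.59 to -0.08, Lss -0.97 to -0.10, Ebp -0.41 to -0.07, Elovl6 -0.48 to -0.21, Elovl1 -0.35 to -0.03, Scap -0.31 to -0.13, Acly -0.38 to -0.04, Acss2 -0.23 to 0.00, Abca1 0.18 to 0.79 and Abcg1 0.01 to 0.21. Depth limits Abca1 most, with about 74 reads in its lowest library, against 210 or more for the other 28 members with an estimate.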

Other observations

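Transcripts of 1 gene did not always move alike. The 2 transcripts of Scap were listed at 4.38, 3.58 and 2.52 FPKM and at 8.51, 10.5 and 13.7 in empty vector replicates 1 to 3, and at 5.12, 4.38 and 2.52 and 6.17, 9.97 and 8.85 with Blimp-1. The first was lowest in the replicate 3 libraries of both vectors, while the second was highest in empty vector replicate 3. Of the 2 transcripts of Acly, one was at 15.5, 10.9 and 20.7 FPKM in the empty vector libraries and the other at 23.7, 25.8 and 38.5, so that replicate 2 was low in the first and not in the second. Short single-end reads divide such transcripts by estimate, and these values were not tested.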
